A study of Mus musculus with 2 samples.

Results

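The H3K27me3 peak list of primary rib chondrocytes held 7984 peaks that were shorter than 10 kb and had no gene within 5 kb in the deposited annotation. They were chosen by 2 columns of the annotated peak table, the width and the gene identifier, and each peak was counted once by its name. They made up 41.2% of the 19359 peaks and 42.7% (95% Wilson interval 42.0 to 43.4) of the 18689 peaks under 10 kb. The remainder were 10705 peaks under 10 kb with a gene, 558 peaks of 10 kb or more with a gene and 112 peaks of 10 kb or more without one. The peaks under 10 kb without a gene are called shorter gene-free peaks here, and the 11263 peaks with a gene identifier are called gene-linked peaks. The shorter gene-free peaks covered 13.0 Mb, which was 27.8% of the covered length.

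Rib cartilage of wild-type CD1 pups was dissected at birth, chondrocytes were released from it with collagenase, and they were grown overnight. One library was made from chromatin precipitated with an antibody against H3K27me3 (ChIP) and 1 from input chromatin, which had not been precipitated. Per the file headers, 17237574 ChIP tags and 17004082 input tags remained after filtering. The libraries were grouped by their titles, because the antibody tags of the labels name them the other way round. The number of animals and the sex of the pups were not given in the sources used here. With 1 library of each kind there were no replicates, so every value describes this peak list, and intervals cover counting error only.

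H3K27me3, the trimethylation of lysine 27 on histone H3, is deposited by Polycomb repressive complex 2 (PRC2), whose core holds Ezh1 or Ezh2, Eed and Suz12. The mark lies over many silent genes for developmental transcription factors, often as broad domains that start at CpG-rich promoters, and it also reaches the DNA between genes.

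The gene-free peaks can be compared with RefSeq promoter windows on GRCm38.p6, which run from 250 bases before to 50 bases after a gene's start. Although the deposited annotation joined no gene to them, 102 shorter gene-free peaks (1.28%) held a whole promoter window of the RefSeq table, against 620 (5.79%) of the shorter gene-linked peaks. These 102 peaks held 113 windows, of which 96 belonged to long non-coding RNA (lncRNA) genes and 17 to protein-coding genes. The following 4 windows, chosen after their values were seen, differ in base composition, with each CG dinucleotide in capitals. The windows are written 5′ to 3′ on the strand of the gene.
Gm34636 promoter: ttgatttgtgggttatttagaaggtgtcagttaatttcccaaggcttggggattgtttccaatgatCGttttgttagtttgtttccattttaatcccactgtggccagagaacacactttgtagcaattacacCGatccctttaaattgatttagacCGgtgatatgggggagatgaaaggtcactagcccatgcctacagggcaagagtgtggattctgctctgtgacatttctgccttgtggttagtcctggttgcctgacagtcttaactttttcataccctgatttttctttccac
Gm34424 promoter: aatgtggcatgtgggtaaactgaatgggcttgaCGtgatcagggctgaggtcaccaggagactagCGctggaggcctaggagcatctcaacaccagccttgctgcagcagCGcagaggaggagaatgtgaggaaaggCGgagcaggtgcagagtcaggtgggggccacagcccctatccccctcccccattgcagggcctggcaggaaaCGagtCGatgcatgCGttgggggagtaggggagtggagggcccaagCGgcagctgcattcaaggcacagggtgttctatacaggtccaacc
Nav2 promoter: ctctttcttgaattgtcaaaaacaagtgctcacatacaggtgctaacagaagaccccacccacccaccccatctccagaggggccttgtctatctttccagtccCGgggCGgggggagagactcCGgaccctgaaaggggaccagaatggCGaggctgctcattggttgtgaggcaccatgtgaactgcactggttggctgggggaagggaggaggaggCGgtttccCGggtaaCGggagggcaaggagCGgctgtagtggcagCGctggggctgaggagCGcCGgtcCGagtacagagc
Lingo1 promoter: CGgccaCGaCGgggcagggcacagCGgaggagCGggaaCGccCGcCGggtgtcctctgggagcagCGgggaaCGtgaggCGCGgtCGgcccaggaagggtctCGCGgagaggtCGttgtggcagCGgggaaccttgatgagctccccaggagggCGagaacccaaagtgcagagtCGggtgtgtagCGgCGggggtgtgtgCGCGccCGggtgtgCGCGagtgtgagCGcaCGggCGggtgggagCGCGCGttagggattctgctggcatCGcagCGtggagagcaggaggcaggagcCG

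Gm34636 is a lncRNA gene whose window lies at chr19:43568938-43569237 on the minus strand, under a gene-free peak of 9697 bp that ended 1.26 kb from the gene-linked peak of Nkx2-3, a homeobox gene. Its window held 3 CG dinucleotides and 42.3% G and C. Gm34424 is a lncRNA gene between Tle3 and Rplp1, with its window at chr9:61509464-61509763 on the plus strand, 8 CG dinucleotides and 60.3% G and C. The window of Nav2, a neuron navigator gene, lies at chr7:48958823-48959122 on the plus strand and held 12 CG dinucleotides. The window of Lingo1, which encodes a membrane protein of the nervous system, lies at chr9:56796261-56796560 on the minus strand, held 35 CG dinucleotides and had an observed to expected CpG ratio of 1.02. The peak over the Lingo1 window was 4620 bp wide, with a fold enrichment of 3.21.

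Few of the 113 windows were of the Lingo1 kind. The median window held 5 CG dinucleotides and 48.7% G and C, and 9 windows (7.96%, 4.25 to 14.4) were CpG-rich, which was taken as at least 55% G and C with an observed to expected CpG ratio of at least 0.6. The share of CpG-rich windows was 28.0% under shorter gene-linked peaks, 38.5% under peaks of 10 kb or more and 30.3% over all 32851 windows of the table. Gene type moved with this difference. Among lncRNA windows, 3.13% (1.07 to 8.79) were CpG-rich under gene-free peaks, 17.1% under shorter gene-linked peaks and 10.7% in the whole table. Among protein-coding windows, 6 of 17 (35.3%, 17.3 to 58.7) were CpG-rich under gene-free peaks, against 32.0% and 41.0%.

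The shorter gene-free peaks were narrow and weakly enriched. Their median width was 1141 bp (quartiles 686 and 2012 bp), with a range from 294 bp, the modelled fragment length, to 9954 bp. The median width of the shorter gene-linked peaks was 1318 bp (quartiles 755 and 2594 bp). Pileup, the mean number of ChIP fragments over a peak, had a median of 10.87 (quartiles 10.36 and 11.58, range 9.86 to 170.07) without a gene and 11.08 with one. Fold enrichment, the ratio of pileup plus 1 to the input background plus 1, had a median of 3.13 (quartiles 3.02 and 3.28, range 1.42 to 4.79) and 3.17, respectively. Thus between their pileup quartiles (10.47 and 11.81 with a gene) both kinds lay within a narrow range just above the lowest pileup that was called.

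Width, pileup, fold enrichment and q-value all come from the contrast that chose the peaks, so their counts, here and for runs, loci and distances, describe the list with no test. A peak is said here to meet the q-value limit where its q-value, the adjusted p-value averaged over the peak, did not exceed 0.05. The limit was met by 4419 shorter gene-free peaks (55.3%, 54.3 to 56.4), and by 60.8% of all peaks. A fold enrichment of at least 3.5 was held by 500 shorter gene-free peaks (6.26%), beside 9.56% of all peaks and 9.54% of the shorter gene-linked peaks.

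The share of peaks in a width class differed by kind. Peaks of 5 to 10 kb made up 4.47% (4.04 to 4.95) of the gene-free and 9.13% (8.60 to 9.69) of the gene-linked peaks under 10 kb, and peaks of 0.5 to 1 kb made up 28.3% and 23.3%. Within a width class the median fold enrichments were close, whereas shares at a limit differed in several classes. The median fold enrichment was 3.06 without and 3.07 with a gene at 0.5 to 1 kb, and 3.32 and 3.36 at 5 to 10 kb. The share at a fold enrichment of at least 3.5 differed more in the widest class, with 12.9% (9.80 to 16.8) of 357 gene-free peaks and 21.7% (19.2 to 24.4) of 977 gene-linked peaks.

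**Figure D1:**
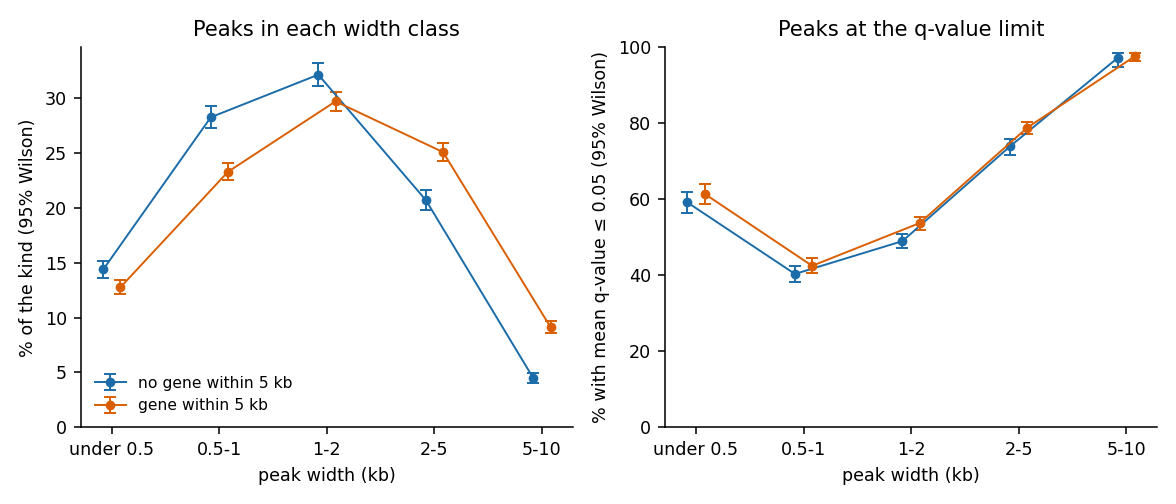
The left panel plots the percentage of gene-free and gene-linked peaks under 10 kb that fall in each width class (kb), and the right panel the percentage of each class that meets the q-value limit of 0.05; bars are 95% Wilson intervals. Gene-free peaks are fewer at 2 to 10 kb, and at 5 to 10 kb 97.2% of them and 97.6% of the gene-linked peaks meet the limit.

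The widest members lay close to the limit of 10 kb. The widest was 9954 bp at chr13:72695190-72705143, 56.5 kb from the gene-linked peak of Irx2, an Iroquois homeobox gene, with a pileup of 11.60 and a fold enrichment of 3.36. The next are named by their nearest gene-linked peak. They were 9852 bp at 65.0 kb from that of Shank2, a postsynaptic scaffold gene, and 9825 bp at 70.9 kb from that of Irx5. Then came 9804 bp at 199 kb from that of Tle3, a corepressor of the TLE family. The last had 9790 bp and lay 161 kb from that of Thy1, which encodes a cell surface glycoprotein. Its nearest protein-coding gene was Nectin1 at 65.0 kb. The peak near Shank2, at chr7:143974456-143984307, overlapped Shank2 in the RefSeq table although the nearest Shank2-linked peak was 65.0 kb away. On the other side of the limit, the narrowest gene-free peaks of 10 kb or more were 10071, 10124 and 10125 bp, with fold enrichments of 3.46, 3.32 and 3.26.

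A few members stood apart by pileup. The highest was 170.07 fragments over 1403 bp at chr15:75085478-75086880, 99.0 kb from the peak of Ly6i, a gene of the Ly6 surface antigen family. Its input background, computed from pileup and fold enrichment, was 119.3 fragments, so its fold enrichment was 1.42, the lowest of all members. The next by pileup held 124.88 fragments on chromosome 18 and 42.75 at 54.3 kb from the peak of 4933405E24Rik, with the gene P4ha2 at 8.42 kb. Then came 41.47 at 86.9 kb from the peak of Myt1, over the lncRNA gene Gm40034. The last held 34.53 on chromosome 2, where the nearest gene-linked peak had no symbol. In all, 17 members had a pileup of 20 or more, with a median fold enrichment of 2.26 and a median input background of 13.3 fragments, where the median background over all members was 2.73. Thus high pileup went with high input signal in these peaks, and fold enrichment ranked different peaks first.

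By fold enrichment the strongest member was a peak of 433 bp at chr2:103877597-103878029, with 4.79 fold and a pileup of 16.61. The nearest protein-coding gene was Lmo2, a LIM domain cofactor of blood cell transcription factors, at 79.9 kb. The next was a peak of 1749 bp at chr19:43639035-43640783 with 4.35 fold, 11.4 kb from a 51.2-kb peak linked to Nkx2-3. A peak of 326 bp at chr12:56560715-56561040 had 4.30 fold and lay 23.8 kb from Nkx2-1, a homeobox gene of lung and thyroid. The remaining members of the 5 highest lay 5.13 kb from the peak of Plekhm1 (4.24 fold) and 40.3 kb from that of B230323A14Rik (4.16 fold). In the RefSeq table a lncRNA gene was the nearest gene to each of the 5. Gm34922 and Gm26973 were overlapped by the peaks of 4.35 and 4.30 fold, respectively. Gm39397 lay 0.249 kb from the peak of 4.24 fold. Gm34948 lay 6.96 kb from the strongest peak and Gm39368 11.7 kb from that of 4.16 fold. Of these 5 peaks, 4 were narrower than 500 bp.

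Shorter gene-free peaks were spread unevenly over the chromosomes. Chromosome 5 held most (649), followed by chromosome 9 (633) and chromosome 8 (631). Per Mb up to the last RefSeq gene, chromosome 9 had 5.09, chromosome 13 had 5.0 and chromosome 8 had 4.88, whereas chromosome 10 had 1.61, the lowest of the autosomes. The share of shorter peaks with no gene was 62.5% (59.4 to 65.5) on chromosome 13, 55% (52.1 to 57.8) on chromosome 8 and 27.6% (25.5 to 29.7) on chromosome 11. Chromosome 13 had 6.89 protein-coding genes per Mb and chromosome 11 had 13.2. Over the 19 autosomes the Spearman correlation with protein-coding gene density was 0.57 for member density and -0.28 for the share with no gene, and the chromosomes of both rankings come from the same pair of libraries.

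The X chromosome held 30 shorter gene-free peaks (0.176 per Mb, against 3.23 per Mb over the autosomes), and the Y chromosome held 0. The ratio of X to autosome density was 0.0544 for these peaks and 0.147 for the shorter gene-linked peaks. For the gene-free peaks it was 0.0294 among those that met the q-value limit, 0.0289 (0.00509 to 0.164) at 3.5 fold or more, 0.0330 by covered bases and 0.0812 for peaks with no RefSeq gene within 5 kb. On the X, 21.7% (15.7 to 29.3) of the 138 shorter peaks had no gene.

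**Figure D2:**
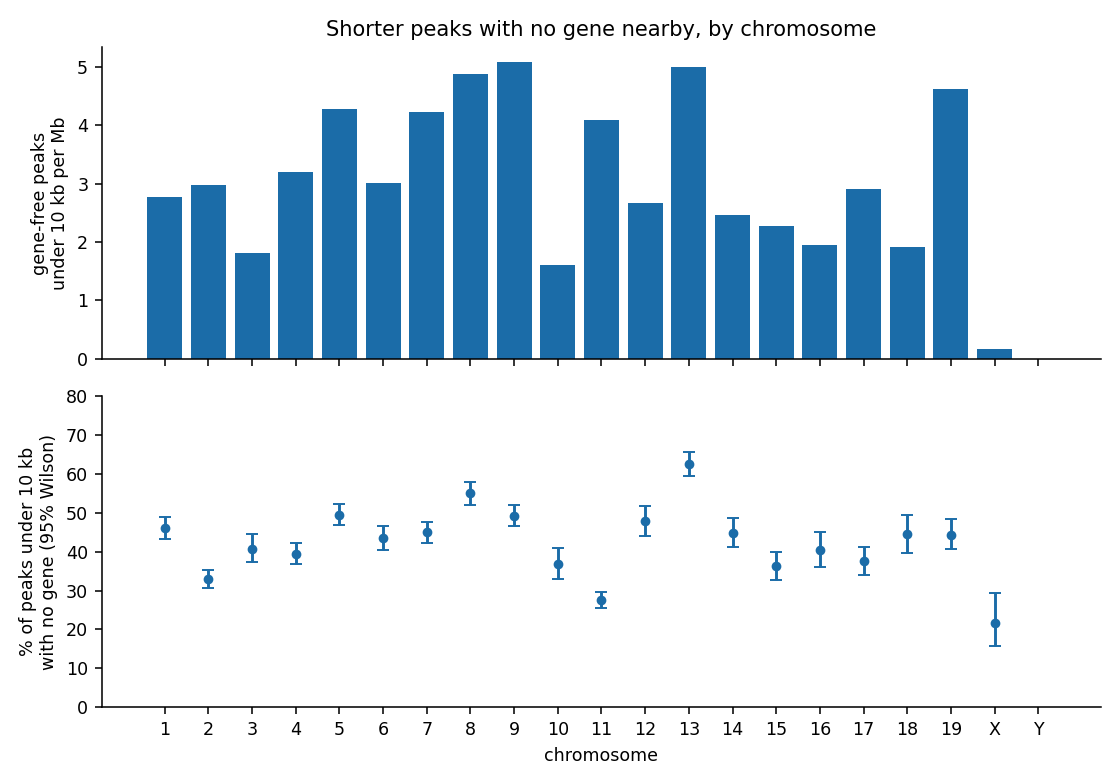
The upper panel plots shorter gene-free peaks per Mb by chromosome, and the lower panel the percentage of all peaks under 10 kb that had no gene, with 95% Wilson intervals; Y has no peak. Chromosomes 9, 13 and 8 have the highest densities, X has 0.176 per Mb, and the share without a gene runs from 21.7% on X to 62.5% on chromosome 13.

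Within chromosomes the peaks were gathered in a small part of the genome. Of 2641 windows of 1 Mb, 1270 held at least 1 shorter gene-free peak, and 183 windows (6.93%) held 50% of them. The 84 windows with 20 or more held 31.4%. The fullest window, at 61 to 62 Mb of chromosome 9, held 92 around Tle3 and Rplp1, beside 16 other peaks. The next held 83 at Mgmt on chromosome 7, 65 at Zfp703 on chromosome 8 and 60 at Irx5 and Irx6 on chromosome 8.

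Neighbouring peaks lay close together. The median distance from a shorter gene-free peak to the nearest peak of any kind was 3.18 kb from edge to edge (quartiles 1.67 and 10.1 kb), against 2.61 kb for the shorter gene-linked peaks. The smallest distance was 1177 bp, because the peak caller joins calls up to 1176 bp apart. A neighbour lay within 5 kb for 61.6% (60.5 to 62.7) and within 20 kb for 83.3%. The nearest peak was another shorter gene-free peak for 6399 (80.1%), a shorter gene-linked peak for 16.5% and a peak of 10 kb or more for the remaining 175 with a gene and 95 without. Both neighbouring peaks were shorter gene-free peaks for 57.5%, and neither was for 8.54%.

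Runs were formed from shorter gene-free peaks at most 5 kb apart with no other peak between them. There were 1582 runs of 2 or more, which held 4399 peaks (55.1%, 54.0 to 56.2), and 3585 peaks stood alone. Of the runs, 957 had 2 peaks, 530 had 3 to 5 and 95 had 6 or more. The median span of a run was 7.13 kb, and 504 runs (31.9%) spanned 10 kb or more, the width that separates these peaks from the broad ones. The share in runs rests on the joining distance, and it was 30.0% at 2 kb and 75.5% at 20 kb. When all peaks had to reach 3.5 fold, 9.20% lay in runs and the median gap to any peak was 60.4 kb.

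Width, pileup and fold enrichment had higher medians in longer runs. The median width was 1021 bp for peaks alone, 1177.5 bp in runs of 2, 1319 bp in runs of 3 to 5 and 1628 bp in runs of 6 or more. The median pileup was 10.71, 10.91, 11.10 and 11.30 in the same order, and the share that met the q-value limit was 47.4%, 56.7%, 63.6% and 71.5%. Among peaks of like width the same order was seen from 0.5 to 5 kb. In each of these width classes the intervals of peaks alone and of runs of 3 or more do not overlap. The interval of runs of 2 overlaps that of a neighbouring class of runs or of peaks alone in each. At 1 to 2 kb the share was 43.2% (40.4 to 46.0) for 1205 peaks alone, 50.5% (46.6 to 54.3) in runs of 2 and 57.5% (53.8 to 61.0) in runs of 3 or more. The order was not seen below 0.5 kb, where the shares were 56.0%, 62.7% and 62.3%, or at 5 to 10 kb, where they were 95.9%, 97.8% and 97.4%. All intervals overlap in both of these width classes. Fold enrichment differed little, with a median of 3.10 for peaks alone and 3.20 in runs of 6 or more.

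**Figure D3:**
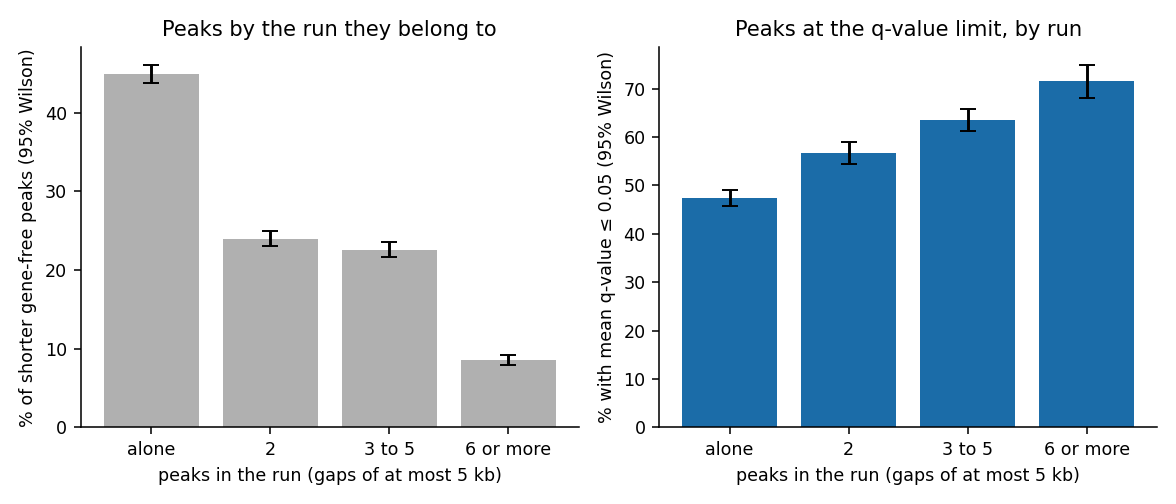
The left panel plots the percentage of the 7984 shorter gene-free peaks that stand alone or lie in runs of 2, of 3 to 5 and of 6 or more, and the right panel the percentage of each class that meets the q-value limit of 0.05; bars are 95% Wilson intervals. The right panel rises from 47.4% for peaks alone to 71.5% in runs of 6 or more.

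The longest run lay between Tle3 and Rplp1. It held 18 peaks over 102.7 kb at chr9:61627583-61730325, which covered 59.4% of that span, and 17 of the 18 met the q-value limit. Its pileups ran from 10.03 to 13.51 and its fold enrichments from 2.96 to 3.63. For runs and stretches, the peaks named on each side are the nearest ones linked to a gene with a symbol, and gene-linked peaks without a symbol can lie closer. Here they were those of Tle3 at 197 kb and Itga11, an integrin gene, at 947 kb. A run of 14 peaks followed at chr9:61740986-61795977, with a median pileup of 11.88 and a median fold enrichment of 3.39.

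Other long runs flanked genes of developmental transcription factors. A run of 17 peaks at chr11:84564408-84637045 lay 15.5 kb from the 10.3-kb peak of Lhx1os, the antisense gene of Lhx1, a LIM homeobox gene, and reached towards 1700109G15Rik at 73.4 kb. It was less dense than the run near Tle3, with 42.1% of its span covered and 10 of 17 peaks meeting the q-value limit. A run of 10 peaks at chr19:44848724-44903340 started 1.59 kb from a 20.3-kb peak of Pax2, a paired box gene of kidney and eye, and was flanked by Pdzd7 at 135 kb on the other side. A run of 8 peaks at chr13:48696681-48747213 started 7.07 kb from the 21.2-kb peak of Barx1, a homeobox gene, and had 64.8% of its span covered, with Wnk2 at 398 kb on the other side. The run beside Barx1 was named after its values were seen.

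Further runs of most peaks or longest span lay near genes of several roles. There were 13 peaks over 53.7 kb near Mn1, a transcriptional regulator, at chr5:111482815-111536473, 54.3 kb from the Mn1 peak and 40.7 kb from that of C130026L21Rik. A run of 10 peaks over 54.3 kb lay on chromosome 18 between Ccbe1, a gene of lymphatic development, and Pmaip1, a cell death gene, whose peak was 16.1 kb wide and 33.9 kb away. Of the remaining runs of 10 peaks, a run of 46.8 kb lay 181 kb from the peak of Rfx3, a transcription factor gene of cilia, and 12.9 kb from Glis3, a zinc finger transcription factor gene, and a run of 45.4 kb lay 7.40 kb from the peak of Aldh1a2, which encodes an enzyme of retinoic acid synthesis.

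Uninterrupted stretches, in which no other peak lay between shorter gene-free peaks at any distance, numbered 2038. The 179 stretches of 10 or more held 2995 peaks (37.5%), and the largest held 58. That stretch, at chr7:135762751-136503268, ran over 741 kb between Mki67, the gene of the proliferation marker Ki-67, and Mgmt, a DNA repair gene. The nearest peaks linked to a gene with a symbol were 89.6 kb (Ptpre) and 812 kb (Ebf3) from its ends. A stretch of 57 peaks between Tle3 and Rplp1 covered 43.7% of 335 kb, whereas the 58 peaks on chromosome 7 covered 13.3% of their span. A stretch of 32 peaks lay between Irx2 and Irx4 and covered 11.6% of 615 kb, starting 1.33 kb from a 10.6-kb peak of Irx2 and ending 1.46 kb from a 22.0-kb peak of Irx4. These stretches were chosen after their values were seen.

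The same peaks were also grouped by the intervals between neighbouring protein-coding genes of the RefSeq table. Of 19697 intervals, 2120 held 7501 of the shorter gene-free peaks whole. The median interval had 17.3 kb, the median interval with such a peak 75.3 kb, and the median over the peaks was 204 kb. Large intervals were not filled in proportion to their length. Intervals of 500 kb or more made up 49.4% of interval length and held 25.9% of these 7501 peaks, which was 2.37 per Mb against 6.62 per Mb in smaller intervals, and 478 of the 711 large intervals (67.2%) held none. The 45 intervals with 20 or more peaks held 17.5% of the 7984 peaks.

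The fullest interval, from Mki67 to Mgmt, held 90 shorter gene-free peaks and 1 other peak. Their pileups ran from 9.86 to 13.82 with a median of 11.15, their fold enrichments from 2.86 to 3.58 with a median of 3.14, and 55 met the q-value limit. The interval from Tle3 to Rplp1, a ribosomal protein gene, held 71 shorter gene-free peaks and 4 other peaks. Its fold enrichments ran from 2.80 to 3.76 with a median of 3.28, and 58 of 71 peaks met the q-value limit. The 71 peaks covered 180 kb of 495 kb, and the 90 peaks covered 158 kb of 1178 kb. Both the covered share of the interval and the median fold enrichment were higher at Tle3 than at Mki67.

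The interval on the other side of Tle3, towards Uaca, held 31 more, which covered 90.9 kb beside 8 other peaks, 7 of them 10 kb or wider. The interval between Irx3 and Irx5, Iroquois genes of the same cluster, held 44 with a median fold enrichment of 3.25 beside 9 other peaks. The interval from Lhx1 to Mrm1 held 31, and that from Matn1, a cartilage matrix gene, to Ptpru held 41. The nearest of these to Matn1 was 104 kb away.

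**Figure D4:**
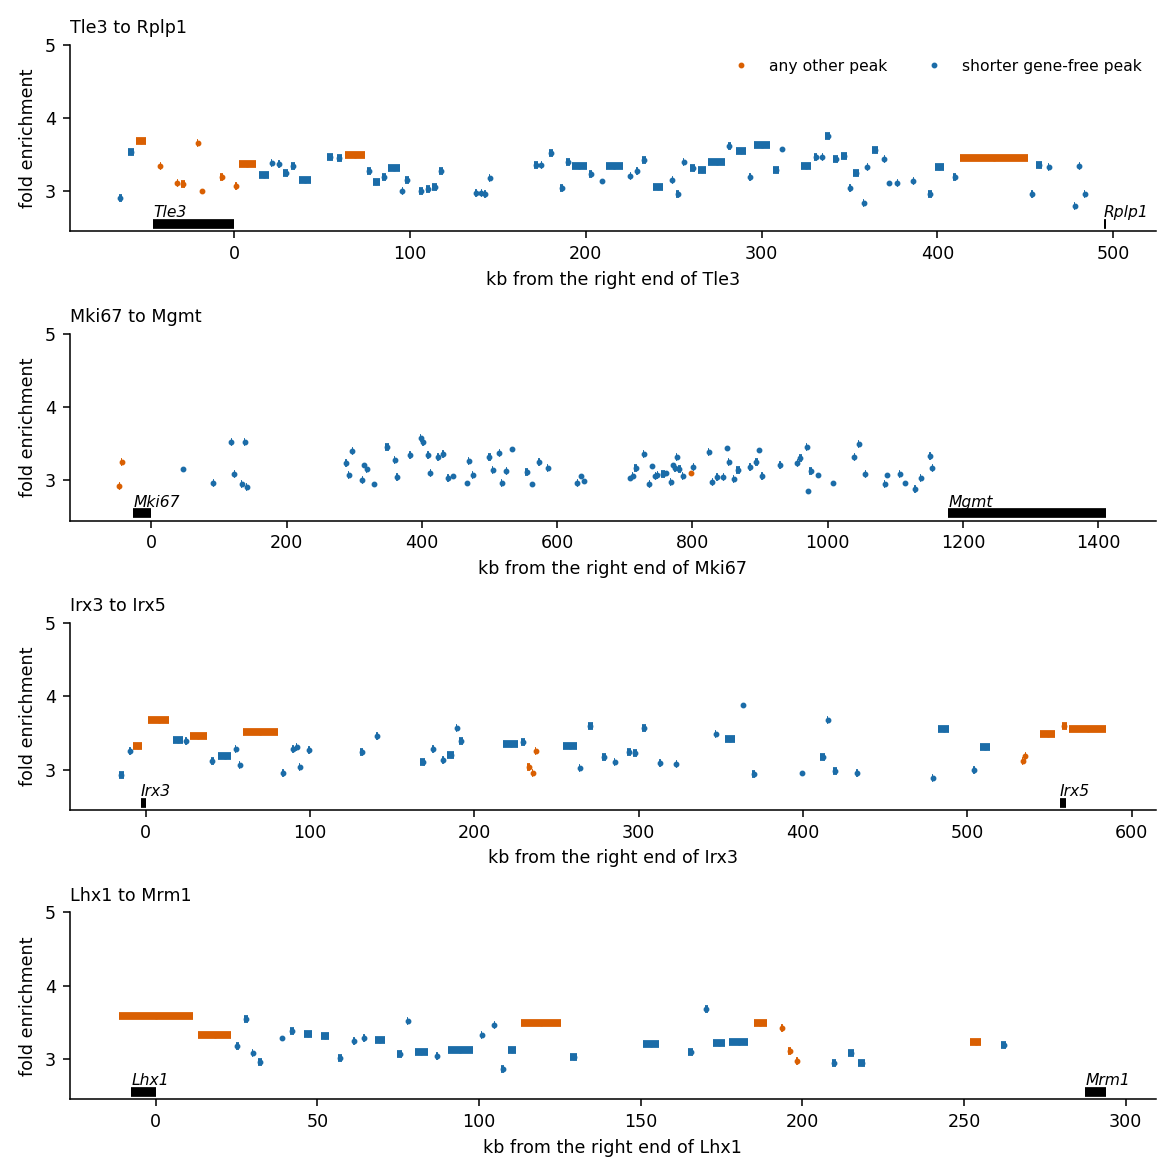
Peaks in 4 intervals between protein-coding genes, chosen after their values were seen, are plotted by distance in kb from the right end of the left gene (horizontal axis, bar length is peak width) and by fold enrichment (vertical axis, which starts above 0); black boxes are genes. Shorter gene-free peaks lie at 2.80 to 3.76 fold between Tle3 and Rplp1, where they cover 180 kb of 495 kb, and at 2.86 to 3.58 fold between Mki67 and Mgmt, where they cover 158 kb of 1178 kb, with 4 and 1 other peaks, respectively.

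Gene-linked peaks are among the peaks of any kind, so the nearest of them cannot lie closer than the nearest peak. The median distance from a shorter gene-free peak to the nearest gene-linked peak was 50.7 kb (quartiles 13.6 and 174 kb). It was 27.1 kb when the RefSeq table decided which peaks had a gene, and 221 kb when all peaks had to reach 3.5 fold. It was within 5 kb for 11.7%, within 20 kb for 31.8%, within 100 kb for 63.8% and within 1 Mb for 97.3%. The farthest lay 3916 kb away at chr12:4064595-4065410, with the peak of Apob, an apolipoprotein gene, as its nearest. Its nearest protein-coding gene was Dnajc27 at 17.2 kb, and it had a pileup of 10.05 and a q-value of 0.0968. The other 4 of the 5 farthest lay together on chromosome 3, 3884 to 3900 kb from a gene-linked peak without a symbol.

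Peaks within 5 kb of a gene-linked peak had the highest median width and the highest share at the q-value limit of the distance classes. The median width was 1326 bp within 5 kb and 1061 bp beyond 500 kb, and the share that met the q-value limit was 64.3% (61.2 to 67.3) within 5 kb, 56.7% at 5 to 20 kb, 50.4% at 100 to 500 kb and 52.5% (48.7 to 56.3) beyond 500 kb. The gradient was shallow, and across the 7984 peaks the Spearman correlation of distance with fold enrichment was -0.07 and with width -0.09. These peaks share their libraries and are not independent replicates.

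**Figure D5:**
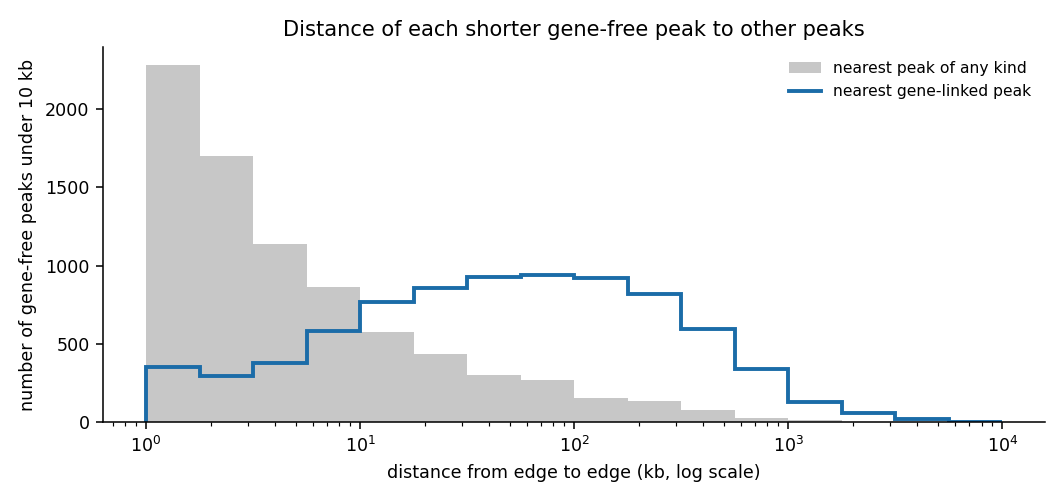
The number of shorter gene-free peaks (vertical axis) is plotted by distance in kb on a log scale to the nearest peak of any kind (grey) and to the nearest gene-linked peak (blue line). The medians are 3.18 kb and 50.7 kb, and the latter is 27.1 kb with genes of the RefSeq table and 221 kb at a fold enrichment of at least 3.5.

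The gene-linked peak nearest to a shorter gene-free peak was 10 kb or wider for 1129 of them (14.1%). Counted once each, 242 of the 2448 nearest gene-linked peaks (9.89%) were that wide, against 4.95% of all gene-linked peaks. For peaks within 5 kb the value was 21.5%, and beyond 500 kb it was 8.80%. In total 2448 of the 11263 gene-linked peaks (21.7%) were the nearest to at least 1 shorter gene-free peak. They covered the annotated 5′ end of a gene in 15.8% (14.4 to 17.3), against 11.3% of all gene-linked peaks, and overlapped a gene at all in 47.3%, against 74.0%. The part that position along the chromosome alone has in these shares was not tested.

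A symbol was given at the nearest gene-linked peak for 6387 of the peaks, with 2019 symbols in all, and 144 symbols had 10 or more. Tle3 had most, with 102 at 1.25 to 471 kb, of which 86 met the q-value limit. Adrb3, the beta-3 adrenergic receptor gene, had 70 at a median distance of 509 kb. Its name stands for an anchor and not for the closest gene, because 65 gene-free peaks lay in the interval from Thap1 to Zfp703, a zinc finger gene 8.66 kb from the end of their largest stretch. Dio3, which encodes an enzyme that inactivates thyroid hormone, and the microRNA gene Mir1247 share their peaks and had the same 45.

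The other symbols among the 10 with most peaks were B230323A14Rik, a lncRNA gene, with 40, Epha4, an ephrin receptor gene, with 36, Sox14, a transcription factor gene, with 31, Thy1 with 31, Irx2 with 30 and LOC102632463 with 29. Syt17, a synaptotagmin gene, also had 29. The distances differed widely among them. The median was 113 kb for Sox14 and 101 kb for Irx2, whereas it was 577 kb for Epha4 and 1199 kb for Syt17. The broadest own peaks were 35.9 kb for Sox14 and 27.8 kb for B230323A14Rik, whereas that of Thy1 was 2.30 kb. Foxb1, a forkhead gene with 22 gene-free peaks, had 1 own peak, of the same 27.8 kb as B230323A14Rik.

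Grouped by gene family, developmental transcription factors stood at the nearest gene-linked peak of 840 shorter gene-free peaks (10.5%, 9.87 to 11.2), with 146 symbols. Such a gene was carried by 3.87% (3.53 to 4.24) of all gene-linked peaks. With genes of the RefSeq table these shares were 6.09% and 3.25%, and at a fold enrichment of at least 3.5 they were 22.6% and 13.1%. Counted once for each nearest gene-linked peak, the share was 170 of 2448 (6.94%, 6.0 to 8.02), with a mean of 4.94 gene-free peaks at each, against 3.26 over all nearest gene-linked peaks. By the nearest protein-coding RefSeq gene the share was 9.92%, where such genes are 1.20% of protein-coding genes. After Sox14 and Irx2 came Irx3 and Nr2f2, an orphan nuclear receptor gene, with 26 each, Irx1 with 25 and Msx1, a homeobox gene, with 24. The 24 near Msx1 lay at 7.16 to 160 kb and reached 4.09 fold, and those near Nr2f2 lay at a median of 1176 kb.

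Counted by gene-free peak, the remaining families had shares no higher than those among gene-linked peaks. Signalling genes stood at the nearest peak of 93 (1.16%, against 1.35%), with Wnt2b 12, the frizzled receptor gene Fzd10 10, Fgf9 7 and the Notch ligand gene Dll1 5. Axon guidance and adhesion genes stood at 73 (0.914%, against 2.00%), of which Epha4 alone gave 36, and Ntng2, Pcdh8 and Unc5b gave 4 each. The list holds the families of its symbol patterns only, and leaves out Nrp1, a semaphorin receptor gene with 24 gene-free peaks, and Cadm1, a cell adhesion gene with 21, both named after their values were seen. Ion channel and neurotransmitter receptor genes stood at 309 (3.87%, against 5.09%), with 70 of Adrb3, 18 of the potassium channel gene Kcna5, 17 of the calcium channel gene Cacna1e and 16 of the potassium channel gene Kcnj2. The value of Kcna5 is uncertain, since its record spans 166 kb in the deposited annotation and 3.0 kb in the RefSeq table. Housekeeping families stood at 16 (0.200%, against 0.266%), with Ndufb8 and Rpl38 3 each and Ndufa10 2. Counted once for each of the 2448 nearest gene-linked peaks, the share was 1.59% (1.17 to 2.17) for signalling and 0.368% (0.194 to 0.697) for housekeeping families. Both were above the shares among all gene-linked peaks, which their intervals include. Counted so, axon guidance and adhesion genes (1.02%) and ion channel and neurotransmitter receptor genes (3.43%) stayed below. By the nearest protein-coding RefSeq gene, and beside the share of all protein-coding genes as another baseline, the share was 1.24% for signalling genes (0.516% of protein-coding genes), 1.15% for axon guidance and adhesion genes (0.726%), 2.39% for ion channel and neurotransmitter receptor genes (1.07%) and 1.24% for housekeeping families (1.21%).

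Among the list of chondrocyte genes, Runx3, a runt transcription factor gene, was the symbol at the nearest gene-linked peak of 1 gene-free peak (0.0125%), at 50.6 kb. A gene of this list was carried by 0.0444% of all gene-linked peaks. By the nearest protein-coding RefSeq gene, 29 gene-free peaks (0.363%, 0.253 to 0.521) had a gene of the list, beside a baseline of 0.119% of protein-coding genes. None of the 10 defining chondrocyte markers (Col2a1, Acan, Sox9, Col9a1, Col11a1, Col11a2, Matn1, Matn3, Hapln1 and Comp) had a peak in the deposited annotation. These genes are active in chondrocytes, so the labelled cell type was not contradicted by them. Their nearest shorter gene-free peaks lay 31.2 to 4354 kb away, with a median of 138 kb. Of the markers of other cells, 2 of 3 muscle genes and 2 of 2 blood genes had a peak, and 0 of 2 endothelial and 0 of 2 bone genes had one. The peak nearest to Myod1, the muscle determination gene, among the gene-free peaks was 6.41 kb away.

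The absence of a gene held for the deposited annotation and not for the RefSeq table. In the latter 2621 shorter gene-free peaks (32.8%, 31.8 to 33.9) had a gene of any type within 5 kb. Of these, 1864 (23.3% of all) had a lncRNA gene and 612 (7.67%) a protein-coding gene within 5 kb. The median distance was 9.39 kb to a gene of any type, 27.4 kb to a lncRNA gene and 30.6 kb to a protein-coding gene. No peak overlapped a microRNA gene, and 9 had one within 5 kb, with Mir8109 the closest at 254 bp.

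A protein-coding RefSeq gene was overlapped by 473 of the peaks, and for 272 of them (57.5%) that gene's symbol stands at another peak of the deposited annotation. Creb5, a transcription factor gene of the CREB family, held 26 within its RefSeq span of 413 kb, all before the deposited record of 122.6 kb begins. Nav2 held 19 before its deposited record of 364 kb, where RefSeq gives 651 kb. Slc35f3, a solute carrier gene, held 16, Cacna1e 14 and Adamtsl1 11. Creb5 was named after its values were seen.

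The widest members that overlapped a RefSeq gene lay over genes of several types. Besides Shank2, they lay over the lncRNA genes Gm34636, 2410012E07Rik, Gm40056, Gm35602 and Gm33532, the pseudogene Gm21321, and the protein-coding genes Grip2 with Ccdc174, Adamtsl1 and Slc35f3. Their widths ran from 9.05 to 9.85 kb and their fold enrichments from 3.19 to 3.61. The member over 2410012E07Rik lay 1.60 kb from the peak of Gfra2, a receptor gene of the GDNF family.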

How the data were processed

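H3K27me3 ChIP and input DNA of wild-type primary chondrocytes were sequenced, with 1 library of each. The submitters' processing notes name CASAVA 1.8.4, Bowtie2, MACS2 and the build mm10. Per the file headers, the authors called broad peaks with MACS 2.1.0.20140616 on 17237574 filtered ChIP and 17004082 filtered input tags, with a q-value cutoff of 0.05, a fragment length of 294 bp and the larger library scaled to the smaller. The pileup is a coverage signal deposited per peak by the authors. Fold enrichment is a ratio that the authors deposited, of pileup plus 1 to the higher of local and genome-wide input background plus 1. For each peak the authors deposited the mean −log10 of its p-value and its q-value, and only the q-value was used; as a mean it may lie above the cutoff. The authors also deposited gene records within 5 kb of each peak, from which genes and the distances between peak and gene were taken, and peak widths.

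From these files, peaks were counted by name (19359, with equal values in both tables). The input background was computed from pileup and fold enrichment. Distances are from edge to edge on 1 chromosome. Genes, promoters and microRNAs came from RefSeq tables of GRCm38.p6, without exons. Peak sequences were not analysed here, since no genome was used. Chromosome spans end at the last RefSeq gene. Wilson intervals are at 95% and cover counting error only, at the single depth of these libraries. No test was run, since there were no replicates and the peaks were chosen by the same contrast.

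The members and gene lists were chosen with earlier results of these data known. Named genes are the 10 symbols nearest to most members, those beside the 5 runs with most members and the 5 of longest span, those nearest to the 5 widest, 5 of highest pileup, 5 of highest fold enrichment and 5 farthest members, up to 4 of each gene list (1 of which is not reported here), and RefSeq genes under the 10 widest members that overlap a gene. Other genes, and the intervals, stretches and windows of most members, were named after their values were seen. Alternatives were other limits on q-value, fold enrichment and width, RefSeq genes in place of the deposited annotation, and other rules for runs, distances and density. Python 3.11.15, pandas 2.3.3, scipy 1.17.1 and matplotlib 3.10.9 were used, and the distance and run functions were tested on simulated data.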

Additional observations from a re-analysis of the deposited data

How the results depend on the processing

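The results rest on 1 ChIP and 1 input library, and no library was left out. No paired analysis was possible because there was 1 library of each kind. The lowest pileup called was 9.86 fragments, and no other depth was examined. Of 39 values recomputed under alternatives for 8 results, 8 stayed within 1.5 times (counts) or within the counting interval, and 31 moved.

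With a q-value limit of 0.05 on all peaks, 4419 shorter gene-free peaks remained, their width had a median of 1.37 kb, with a median pileup of 11.45, a median gap to any peak of 4.21 kb, 45.6% in runs, a median distance to a gene-linked peak of 58.4 kb, a transcription factor gene at the nearest gene-linked peak for 13.6% and an X to autosome density ratio of 0.0294. At a fold enrichment of at least 3.5 these values were 500, 1.11 kb, 12.63, 60.4 kb, 9.20%, 221 kb, 22.6% and 0.0289. The share of gene-linked peaks with a transcription factor gene was 5.06% and 13.1% under these settings, below that of the gene-free peaks in each. With a width under 5 kb the median width was 1.10 kb, the median pileup 10.83, the median gap 3.32 kb and the share in runs 51.5%. With genes taken from the RefSeq table, 5712 peaks had no gene, the median pileup was 10.84, the median gap 3.33 kb, the share in runs 51.7%, the median distance to a gene-linked peak 27.1 kb, the share with a transcription factor gene 6.09% (3.25% of gene-linked peaks) and the X ratio 0.0812. The share in runs was 30.0% when peaks were joined within 2 kb and 75.5% within 20 kb. The median distance was 72.8 kb to gene-linked peaks with a symbol and 54.2 kb between centres. By covered bases the X ratio was 0.0330. Fewer peaks under stricter limits widen gaps by construction; the cause of the other changes was not tested.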
